A study of Arabidopsis thaliana with 13 samples.

Results

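DPE1 (AT5G64860) and PWD (AT5G26570) encode chloroplast enzymes of starch breakdown, and their transcripts were followed through a time course of Arabidopsis thaliana seedlings. The members were chosen with earlier results of these data known, which the p-values below do not take into account. Their probe sets were taken by annotation, as every probe set of the Affymetrix ATH1 array that is assigned to either locus alone. This gave 2 genes of the 13333 that have such a probe set here, each with 1 probe set, 247216_at for DPE1 and 246829_at for PWD, among 22746 non-control probe sets. The gene table gave the symbol PWD to 2 loci with a probe set, so the member was identified by its locus, and the related locus AT4G24450 is called GWD2 here.

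RNA came from whole seedlings of the accession Col-0 at developmental stage 1.0. They grew on MS agar with 3% sucrose, at 22 C and under a photoperiod of 12 h. All samples shared this accession and medium, and no treatment or mutant was part of the design. The course held 13 arrays, spaced by 4 h from hour 26 to hour 74, with 1 array at each time. What hour 0 was, and whether the lights cycled during sampling, is not given in the labels, so times of day below are hours of the course modulo 24 (hour 34 is hour 10 of its day).

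Leaf starch is made in the chloroplast by day and broken down at night to supply sugar. Breakdown begins when glucan, water dikinase places phosphate groups on the glucan chains at the granule surface, and PWD, the phosphoglucan water dikinase, adds phosphate to chains that already carry some. The phosphate loosens the surface so that beta-amylases can release maltose. Short chains such as maltotriose are left over, and DPE1, the plastidial disproportionating enzyme, rearranges them into glucose and longer chains that can be attacked again. Daily rhythms in the transcripts of many genes of this pathway are well known in Arabidopsis leaves.

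The values were microarray intensities, here called signals, on a linear scale. Signals of different probe sets are not comparable, so levels of DPE1 and PWD are not compared with each other. Once the top and bottom 2% were left out, the mean signal was 100.01 on all arrays, and the array medians lay between 46.8 and 50.9. Of the markers fixed for green tissue and for root, some were bright and some dim, and detection calls were not used. LHCB4.1, LHCB4.2, RCA and PRK lay between 853.9 and 3950 on every array, and LHCB4.3 between 66.7 and 207.3. The root gene PYK10 lay between 2524 and 3492, while the root hair expansins EXPA7 and EXPA18 were dim, at 21.7 to 64.9. Of these 8 markers, LHCB4.2 and LHCB4.3 were rhythmic with fitted peaks at hours 3.47 and 20.6, and the other 6 were not called. Calls of rhythm over all tested probe sets came to 18.3%. In whole seedlings, fewer cells of a type and less RNA per cell cannot be told apart, and the part of tissue composition in the results below was not tested.

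DPE1 and PWD both rose and fell once in each day, and both were highest at hours 34 and 58, on the same arrays. DPE1 gave signals of 56.3, 133.6, 243.4, 185.3, 123.7 and 73.4 at hours 26 to 46. It gave 82.5, 176.3, 272.2, 195.2, 116.9 and 81.5 at hours 50 to 70, and 92.2 at hour 74. The low arrays were those at hours 22 and 2 of the day in each cycle, and by hour 6 the signal stood above the geometric mean of the 13 arrays, 126.4.

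PWD gave signals of 193.3, 202.3, 629.6, 443.5, 368.2 and 330.9 at hours 26 to 46. The later arrays gave 188.1, 304.3, 570.6, 544.4, 386.8 and 299.97 at hours 50 to 70, and 243.7 at hour 74. PWD was low at hours 2 and 6 of the day in the earlier cycle and stepped up between hours 30 and 34. It then declined to 330.9 at hour 46, and changed more steeply, 0.568-fold, to 188.1 at hour 50.

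**Figure D1:**
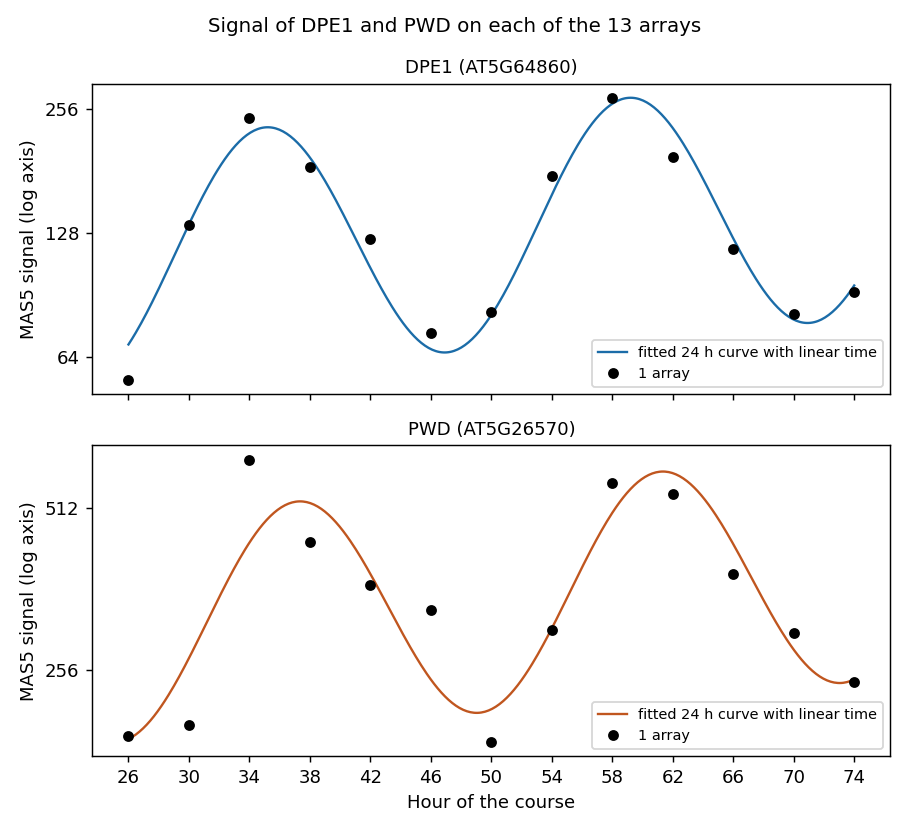
Signal of DPE1 (upper panel) and PWD (lower panel) on each array (y axis, MAS5 signal, log axis) against the hour of the course (x axis). Each point is 1 array and the line is the fitted 24 h curve with linear time. DPE1 follows its curve closely, while the PWD array at hour 34 (629.6) stands above its curve and that at hour 30 (202.3) below it.

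The first comparison asked whether the transcripts followed a 24 h rhythm. A curve with a 24 h cosine and sine and linear time was fitted to log2 signals with limma. Its amplitude is the height of the curve above its mean, and the fold from trough to peak spans 2 amplitudes. For DPE1 the amplitude was 0.96 ± 0.07 (SE, log2 scale, n = 13 arrays), which is 3.81-fold from trough to peak (95% interval 3.11 to 4.66). Its fitted peak was at hour 11.1 ± 0.27 (SE) and its trough at hour 23.1. For PWD the amplitude was 0.70 ± 0.10 (SE, n = 13 arrays), or 2.63-fold (95% interval 1.98 to 3.49), with a peak at hour 13.2 ± 0.58 (SE) and a trough at hour 1.19.

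Both passed limma's moderated F test after Benjamini-Hochberg adjustment over all 13647 probe sets tested, with an adjusted p = 8.67e-07 for DPE1 and an adjusted p = 0.000316 for PWD. Of all probe sets tested, 18.3% were called rhythmic. Since each time point had 1 array, the error behind these p-values is the scatter of 13 arrays about the curve, and their number limits the precision. The 24 h terms took up 95.5% of the variance of DPE1 that linear time left, and 80.4% of that of PWD. The residual SD was 0.17 for DPE1 and 0.30 for PWD on the log2 scale. The largest departures of PWD from its curve were 0.51 above it at hour 34, 0.43 above it at hour 46, and -0.41 at hour 30.

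The swings of both genes were large among the transcripts tested. The median amplitude was 0.14 over all tested probe sets and 0.37 over the 2504 rhythmic ones, which is 1.67-fold from trough to peak. An amplitude larger than that of DPE1 was fitted in 158 of the 13647 probe sets (1.16%), all of which were called rhythmic. An amplitude larger than that of PWD was fitted in 351 (2.57%), of which 347 were called. Peaks within 1 h of DPE1 were found in 215 of the 2504 rhythmic probe sets (8.59%), and peaks within 1 h of PWD in 203 (8.11%).

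Taking the arrays 24 h apart together gives the order of levels without a curve. DPE1 was highest at hour 10 of the day (log2 signal 8.01 ± 0.11 SD, n = 2), followed by hour 14 (7.57 ± 0.05, n = 2), hour 6 (7.26 ± 0.28, n = 2) and hour 18 (6.91 ± 0.06, n = 2). Hour 22 (6.27 ± 0.11, n = 2) and hour 2 (6.24 ± 0.37, n = 3) came last. The signals at hours 22 and 2 overlapped, at 73.4 to 81.5 and 56.3 to 92.2. The other neighbours in this order did not overlap, though the gap between hour 14 and hour 6 was narrow, at 185.3 against 176.3.

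PWD shared the leading times, hours 10 and 14, and differed in the order of the others. It was highest at hour 10 (9.23 ± 0.10 SD, n = 2), then hour 14 (8.94 ± 0.21, n = 2), hour 18 (8.56 ± 0.05, n = 2) and hour 22 (8.30 ± 0.10, n = 2). Hour 6 (7.96 ± 0.42, n = 2) and hour 2 (7.69 ± 0.21, n = 3) were lowest. The signals of hour 22 overlapped those of hour 6, at 299.97 to 330.9 and 202.3 to 304.3, and those of hour 6 overlapped hour 2, at 188.1 to 243.7. The first 4 times in the order did not overlap.

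Arrays 24 h apart were close for both genes. In the 7 such pairs the absolute difference of DPE1 lay between 0.08 and 0.55 (log2), with a median of 0.16, against a median of 1.21 in the 10 pairs that were 12 h apart. That of PWD lay between 0.04 and 0.59, with a median of 0.14, against 0.93 in the 10 pairs. The widest 24 h gap of DPE1 was between hours 26 and 50 (56.3 against 82.5), and that of PWD between hours 30 and 54 (202.3 against 304.3). Both lay between the fitted trough and the fitted peak of the gene, though hour 2 of the day was also among the lowest times of DPE1.

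**Figure D2:**
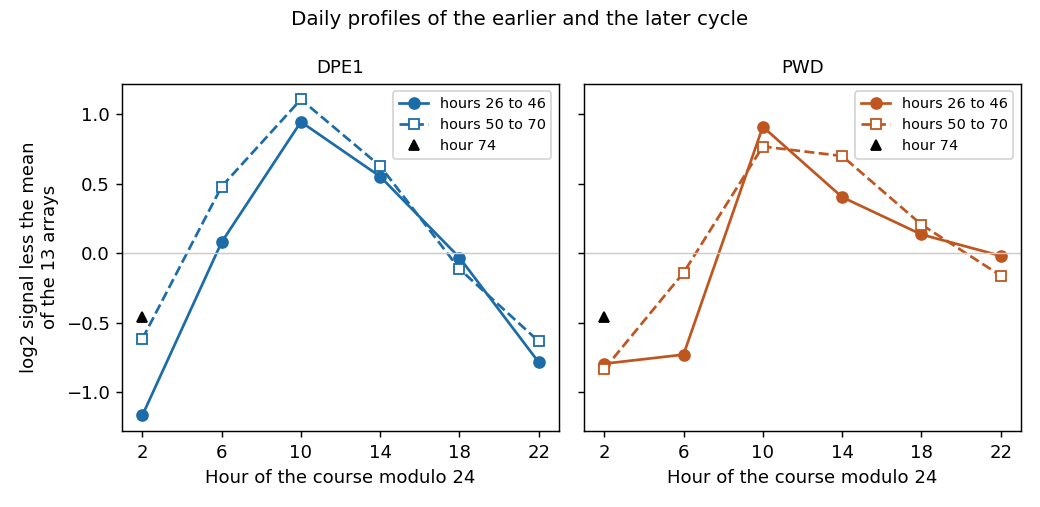
Log2 signal less the mean of the 13 arrays (y axis) against the hour of the course modulo 24 (x axis) for DPE1 (left) and PWD (right). Filled circles are hours 26 to 46, open squares hours 50 to 70 and the triangle hour 74. Both genes are highest at hour 10 in each cycle. At hour 22 PWD stands at -0.02 and -0.16, above its 3 arrays at hour 2 (-0.79, -0.83 and -0.46), while DPE1 at hour 22 (-0.78 and -0.63) lies within the range of its 3 arrays at hour 2 (-1.17, -0.61 and -0.46).

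The second comparison set the daily profile of DPE1, whose enzyme handles the products of breakdown, against that of PWD, whose enzyme acts at its start. Each log2 profile was centred on its own mean, since signals of different probe sets are not comparable. From the maximum at hour 34, DPE1 fell 3.31-fold within 12 h, to 73.4 at hour 46, and rose again over 12 h to 272.2 at hour 58. PWD fell 3.35-fold over 16 h, to 188.1 at hour 50, and rose 3.03-fold within 8 h to 570.6 at hour 58. Between hours 26 and 30 the signal changed 2.37-fold for DPE1 and 1.05-fold for PWD, and between hours 30 and 34 it changed 1.82-fold and 3.11-fold. In the later cycle the steps were 2.14-fold for DPE1 and 1.62-fold for PWD between hours 50 and 54, then 1.54-fold and 1.88-fold between hours 54 and 58. In both cycles the larger of these steps came earlier for DPE1 than for PWD.

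The centred profiles differed in a 24 h pattern. The difference, DPE1 less PWD, was largest at hours 30 and 54, at 0.81 and 0.62 on the log2 scale, and lowest at hours 46 and 70, at -0.77 and -0.47. Its fitted amplitude was 0.52 ± 0.12 (SE, n = 13 arrays), and its 24 h terms passed a permutation test over 100000 random orders of the arrays (two-sided, p = 0.00684, 1 comparison). The fitted peak of PWD was 2.13 h later than that of DPE1 (jackknife SE 0.82 h, with a range of 1.73 to 2.54 h when single arrays were left out). The amplitude of DPE1 was larger by 0.27 (jackknife SE 0.11, range 0.19 to 0.32). With an offset of 16 added before log2, the amplitudes were 0.854 for DPE1 and 0.665 for PWD. How far background alters the amplitude of each probe set was not tested. The permutation test covers height and timing together, and neither was tested alone. The highest array of each cycle was the same for both genes, at hours 34 and 58, although the fitted peaks differ.

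**Figure D3:**
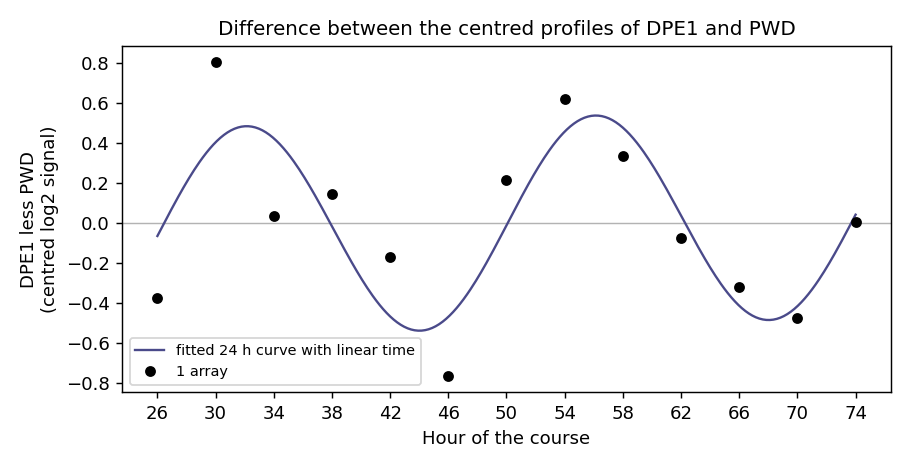
Difference between the centred log2 profiles, DPE1 less PWD (y axis), on each array (points) against the hour of the course (x axis), with its fitted 24 h curve. The points at hours 30 and 54 (0.81 and 0.62) are the highest and those at hours 46 and 70 (-0.77 and -0.47) the lowest, so the sign of the difference turned over in both cycles.

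The third comparison asked whether the daily profile departed from a single cosine. Terms with a 12 h period, which allow a faster rise than fall, had an amplitude of 0.30 ± 0.07 (SE, log2) for PWD and 0.14 ± 0.06 for DPE1. Neither was called by limma's moderated F test over all probe sets (adjusted p = 0.23 for PWD and adjusted p = 0.46 for DPE1), although the unadjusted p of PWD was 0.00191 and that of DPE1 0.081. Over all tested probe sets 0.0220% were called, which is 3 of 13647, and 1663 had an unadjusted p under 0.05. The longer fall than rise of PWD between hours 34 and 58, 16 h against 8 h, is therefore given as values only.

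The fourth comparison asked whether levels drifted over the course apart from the daily cycle. DPE1 had a slope of 0.24 ± 0.08 (SE, log2 per 24 h) and PWD one of 0.18 ± 0.12. Neither was called in limma's moderated test (adjusted p = 0.21 and adjusted p = 0.63), where 0.960% of all tested probe sets were. In simulated data a seeded slope of 0.25 was called in 30% of 50 probe sets. The lack of a call therefore does not show that levels were steady. For DPE1, 6 of the 7 pairs 24 h apart were higher on the later day, and its unadjusted p was 0.00882. Without the array at hour 26, where DPE1 had its lowest signal, the slope was 0.13 ± 0.08. For PWD, 4 of the 7 pairs were higher on the later day, and without the array at hour 30 its slope was 0.11 ± 0.11.

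The fifth comparison was between the 2 cycles, on the 12 arrays of hours 26 to 46 and of hours 50 to 70. The amplitude of DPE1 was 1.00 ± 0.10 (SE, log2) in the earlier and 0.91 ± 0.10 in the later cycle, with peaks at hours 11.9 ± 0.40 and 10.8 ± 0.44. The amplitude of PWD was 0.70 ± 0.16 in the earlier and 0.74 ± 0.16 in the later cycle, with peaks at hours 13.9 ± 0.90 and 13.1 ± 0.84. The shift of the peak, later less earlier, was -1.05 h for DPE1 and -0.77 h for PWD. Neither gene passed the moderated F test (limma) for curves that differ between cycles (adjusted p = 1 for each; unadjusted p of 0.21 and 0.81). No probe set did (0%), with 450 of 13647 at an unadjusted p under 0.05 and 0 calls in the same fit without moderation. With 6 arrays a cycle, this does not show that the cycles were alike.

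Among periods between 20 and 30 h, in steps of 0.5 h, the best fit was at 23.5 h for DPE1 and at 23.5 h for PWD. With single arrays left out the best period of DPE1 was 23 or 23.5 h. That of PWD ranged from 22 h without hour 34 to 24.5 h without hour 30, so its period was less well fixed by these arrays.

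The other genes of the pathway were taken from lists of 58 loci for starch breakdown, starch synthesis and the use of its sugars in the cytosol. Of these, 12 had a probe set annotated to them alone, 11 passed the filter on dim probe sets, and 46 were not analysed here by name. Of the 9 tested genes other than DPE1 and PWD, 3 were rhythmic, against 18.3% of all probe sets, and their median amplitude was 0.29. In limma's test of drift 0 of the 11 were called as rising (0.359% of all probe sets) or falling (0.601%), with 0 calls in a fit without moderation. At an unadjusted p under 0.05 there were 3 of the 11, DPE1, GWD2 (slope 0.29 ± 0.11 SE, log2 per 24 h) and LESV (0.32 ± 0.15).

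In the starch breakdown list, 3 of 26 loci were tested and 2 were rhythmic, the members themselves, against 18.3% of all probe sets. GWD2, a related dikinase, was dim, with a lowest signal of 26.9, a median of 35.5 and a highest of 49.4. Its amplitude was 0.12 ± 0.09 (SE, adjusted p = 0.60). AMY1, an alpha-amylase, fell below the filter, with signals between 14.2 and 29.2, and in a fit without the filter its amplitude was 0.10 ± 0.15 (SE, adjusted p = 0.93).

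In the starch synthesis list, 7 of 22 loci were tested and 2 were rhythmic, against 18.3% of all probe sets. APL3, a large subunit of ADP-glucose pyrophosphorylase, the enzyme that makes the building block of starch, ranged from 44.4 at hour 54 to 259.6 at hour 74. Its amplitude was 0.74 ± 0.16 (SE), with a fitted peak at hour 21.9 ± 0.76 (adjusted p = 0.010). Without the array at hour 74, the amplitude of APL3 was 0.76 ± 0.11 and its peak fell at hour 20.8. SBE2.2, a starch branching enzyme, ranged from 249.5 at hour 38 to 497.2 at hour 46. Its amplitude was 0.31 ± 0.06 (SE), with a peak at hour 23.8 ± 0.74 (adjusted p = 0.00342).

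The remaining 5 genes of that list were not called, which does not show that they were steady. In simulated data a seeded rhythm with an amplitude of 0.25 was called in 20% of 50 probe sets. LESV (28.5 to 66.2), PTST1 (27.3 to 45.5) and PTST2 (37.9 to 50.4) were dim. APL4, another large subunit of the same enzyme, had an amplitude of 0.30 ± 0.16 (SE, adjusted p = 0.37), and its signal was 95.5 at hour 74 against 24.6 to 37.9 on the other 12 arrays. LESV, which acts in the packing of glucans in the granule, had an amplitude of 0.29 ± 0.13 (adjusted p = 0.27), and PTST1, which helps bring granule-bound starch synthase to starch, one of 0.20 ± 0.09 (adjusted p = 0.27). PTST2 and PTST3, which act in the start of new granules, had amplitudes of 0.06 ± 0.07 and 0.11 ± 0.06 (adjusted p of 0.82 and 0.43).

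In the cytosolic list 1 of 10 loci was tested. SPS4F, a sucrose phosphate synthase, ranged from 56.2 at hour 30 to 300.3 at hour 42. It was rhythmic with an amplitude of 1.22 ± 0.12 (SE), or 5.43-fold from trough to peak, and a peak at hour 18.7 ± 0.34 (adjusted p = 1.41e-05). Among the 11 tested genes of the 3 lists, 5 were rhythmic, counting DPE1 and PWD, against 18.3% of all probe sets. The fitted peaks of these 5 genes ran from DPE1 at hour 11.1 and PWD at hour 13.2 to SPS4F, APL3 and SBE2.2 between hours 18.7 and 23.8. Of the genes not called, LESV, PTST1 and PTST3 had their highest signal at hour 34. GWD2, PTST2 and APL4 had theirs at hours 54, 70 and 74. The untested loci of the lists may differ.

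**Figure D4:**
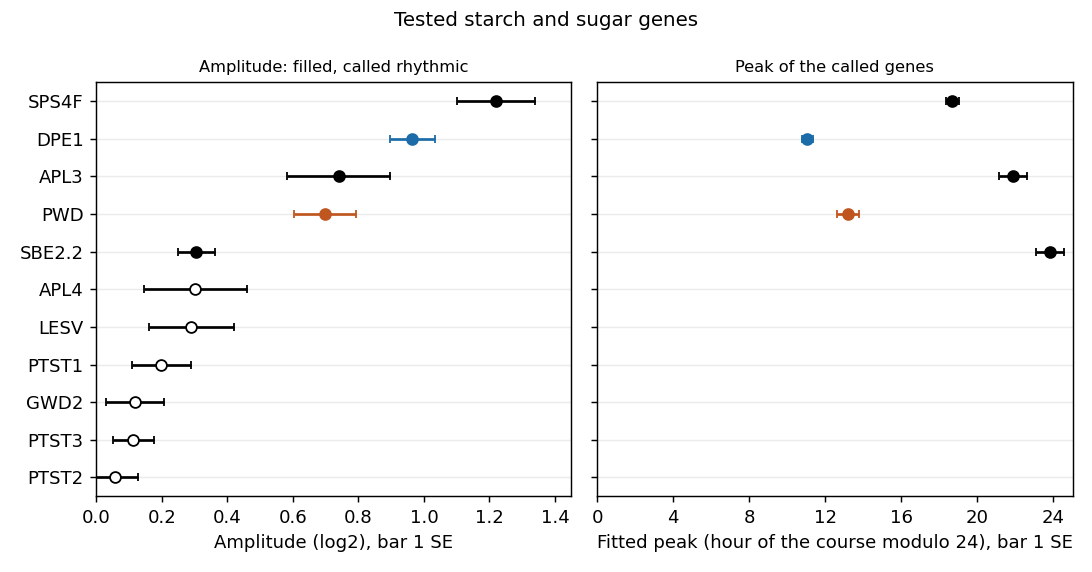
Fitted amplitude (left, log2 scale) and fitted peak (right, hour of the course modulo 24) of the 11 tested starch and sugar genes, each with a bar of 1 SE. Filled points were called rhythmic, and the peak is drawn for those only. DPE1 (0.96) and PWD (0.70) peak at hours 11.1 and 13.2, and the other called genes peak between hours 18.7 and 23.8.

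The transcripts most like each member were found by Pearson's r of log2 signals over the 13 arrays, among 7346 other tested probe sets with a single gene. These are descriptions, since all rhythmic transcripts with a like phase share the daily cycle of the same arrays. DPE1 was most like AT3G15630 (r = 0.97), COR15B (0.97), AT1G21670 (0.97), AT3G26580 (0.96) and AT3G56680 (0.96), whose fitted peaks lay between hours 10.8 and 11.0. COR15B, a cold-regulated chloroplast protein, changed 8.92-fold from trough to peak and AT3G56680 1.57-fold. The most opposite profiles were SAG29 (-0.97), a senescence-associated member of the SWEET sugar transporters with a peak at hour 22.9 and a 5.87-fold change, and AT1G73650 (-0.95).

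PWD was most like MAP1C (r = 0.96), a methionine aminopeptidase, AT2G21130 (0.96), AT3G58570 (0.95), AT5G08400 (0.94) and AT3G59350 (0.94), with fitted peaks between hours 12.5 and 13.8. AT2G21130 changed 3.81-fold and AT3G58570 1.62-fold. The most opposite were AT3G06760 (-0.96) and AT1G69160 (-0.94), with peaks at hours 1.60 and 2.08.

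The transcripts above were picked for the highest or lowest r, so DPE1 and PWD were set against all 7346 instead. The profiles of DPE1 and PWD had r = 0.79 (Spearman's rho 0.76) over the 13 arrays. By r, PWD stood 171st among the 7346 probe sets set against DPE1, where 35 exceeded an r of 0.9. DPE1 stood 127th among those set against PWD, where 21 exceeded 0.9.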

How the data were processed

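Total RNA of 13 samples was measured on ATH1 arrays, and each time point was a group with 1 array. The authors deposited an intensity per probe set, on a linear scale, made with MAS5 per the submitters' processing notes. Its version and settings are not stated there. Scaling each array to a common mean hides changes in total RNA per cell, and MAS5 leaves dim probe sets noisy. No background correction or further normalization was applied. Linear models of log2 signals were fitted by limma's lmFit and eBayes (version 3.58.1, R 4.3.3, with the intensity trend) to 13647 probe sets whose mean log2 signal lay above the 40th percentile (a mean signal of 31.8), and an adjusted p under 0.05 was called. The cycle comparison used the 12 arrays of hours 26 to 70. Standard errors of amplitude and peak came from the delta method.

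The members and lists were chosen with earlier results of these data known. The text names DPE1, PWD, the members of the fixed lists with a probe set of their own, and for each member the 5 transcripts with the highest and the 2 with the lowest r. Of the non-control probe sets, 13513 had 1 annotated gene, 503 several and 8730 none. Of the 13513, 13484 were found in the RefSeq gene table, whose assembly is TAIR10.1. No probe set with several genes included DPE1 or PWD, and cross-hybridization was not tested. No coordinates are printed, since the labels name no genome build for the array, and no sequences were used. Alternatives changed scaling, offset, filter, variance model, period, model terms and arrays. The fits of 24 h rhythm, drift, cycle difference and 12 h terms, and the permutation test, were first tested on simulated data. The alternatives, the period search and the jackknife were not. Figures were drawn with matplotlib 3.10.9.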

Additional observations from a re-analysis of the deposited data

How the results depend on the processing

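No paired analysis was possible because all 13 arrays carry the same replicate number, 1, so a block on it could not be fitted. Both rhythms were called in all 25 alternatives, with amplitudes of 0.85 to 1.01 for DPE1 (adjusted p up to 0.00114) and 0.63 to 0.78 for PWD (adjusted p up to 0.0106). These include time of day as 6 levels in place of the curve, and 12 h terms added to it, both chosen after seeing the data. With single arrays left out, the amplitudes were 0.90 to 1.01 and 0.63 to 0.76. At 22 h the peak of DPE1, taken as the mean of the fitted maxima within the course, moved to hour 11.4, for a cause that was not tested, and its other 17 alternatives gave hours 10.8 to 11.2. PWD stayed between hours 12.7 and 13.6 in its 18. The difference between the profiles passed in all 18 alternatives run for it, with p of 0.00354 to 0.0256 and a later PWD peak by 1.73 to 2.54 h. Drift, the 12 h terms and the cycle difference were not called for DPE1 or PWD in any alternative run. The slope of DPE1 was 0.01 (log2 per 24 h) without 24 h terms, 0.08 at 22 h and 0.13 to 0.28 with single arrays left out, where that of PWD was 0.11 (without hour 30) to 0.25, and the cause was not tested. The number of rhythmic probe sets ranged from 1770 (26 h) to 2567. The lowest signal of DPE1, 56.3, and that of PWD, 188.1, lay above the filter's mean signal of 31.8, and detection calls were not used, so the signal over background is unknown.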
